A study of Mus musculus with 6 samples.

Results

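The 10 genes described here belong to signalling by bone morphogenetic proteins (BMPs): the ligand genes Bmp2, Bmp4 and Bmp6, the receptor gene Bmpr2, the decoy receptor gene Bambi, the inhibitory Smad genes Smad6 and Smad7, and the genes Id1, Id2 and Id3 of the inhibitor of differentiation family. They were taken by gene symbol from a deposited table of 45038 genes, and each symbol matched 1 row. Of the 10, 8 passed the expression filter of at least 1 FPKM (a level that is per length of transcript and per depth of the library) in at least 3 of 6 libraries, and Bmp2 and Bmp6 did not. Over all genes, 10168 passed it.

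RNA was sequenced from cells sorted from the hearts of Tie2-Cre;Rosa-LSL-tdTomato mice of strain C57BL/6, aged 6-8 weeks, in 2 groups of 3 libraries. The MI group came from infarcted tissue 3 weeks after ligation of the left anterior descending coronary artery, and the Normal group from normal left ventricle, labelled as without the surgery. Cells of both groups were sorted as tdTomato-positive and F4/80-negative, F4/80 being an antigen of macrophages. The titles number the libraries Ms1535, Ms1537 and Ms1608 in each group, and nothing in the labels states whether a shared number marks a shared mouse, nor how the libraries of a group differ, so a p-value reflects only how far these libraries spread, which may be technical. The Tie2 promoter drives Cre in endothelium but also marks some blood cells. The F4/80 gate is meant to take out macrophages and leaves other leukocytes, so the sort can hold both endothelial cells and leukocytes. Macrophage transcripts were still measured, as given below. The comparison asks how gene expression in this lineage differs between infarcted and normal tissue. Values of a group are given in the order Ms1535, Ms1537, Ms1608.

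BMP ligands bind pairs of type I and type II serine/threonine kinase receptors, which phosphorylate Smad1, Smad5 and Smad9, and these enter the nucleus with Smad4. Among the genes they switch on in endothelium are those of the Id proteins, which lack a DNA-binding region and hold E proteins away from DNA, and those of Smad6 and Smad7, which feed back on the receptors. In endothelial cells the circulating ligands encoded by Gdf2 and Bmp10 act through the receptor Acvrl1 with the co-receptor Eng, and Bmpr2 serves as a type II receptor.

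Markers of the sorted cells differed widely among libraries, and 1 library stood apart. Across tested genes, log2(FPKM + 1) of Normal Ms1608 correlated with the other 5 libraries at 0.54 to 0.68, whereas these correlated with each other at 0.80 to 0.92, as a description across genes, which are not independent. All 15 endothelial markers were lowest in Normal Ms1608, where their FPKM summed to 13.1, whereas the sum was 1343 and 945 in the other Normal libraries and 288 to 1165 in MI. None of the 15 was listed at 0 there, and Cdh5, the endothelial cadherin, was at 1.20 FPKM in it. The 10 pan-leukocyte markers summed to 4503 FPKM in Normal Ms1608, 322 and 477 in the other Normal libraries and 2517 to 2859 in MI. The 10 fibroblast markers summed to 970 to 5897 FPKM in MI and 191 to 924 in Normal. Summed FPKM of the other lists ranged, in MI and then in Normal, from 824 to 2378 and 161 to 2742 for macrophages and monocytes, and from 92.2 to 222 and 18.2 to 458 for B cells. Neutrophil markers ranged from 4536 to 12032 and 2083 to 13380, and mural cell markers from 25.8 to 33.4 and 1.21 to 31.5. Cardiomyocyte markers ranged from 146 to 986 and 8.58 to 801, and erythroid markers from 432 to 9600 and 1028 to 7233. Normal Ms1608 held the highest Normal sum of the leukocyte lists and the lowest of the other lists. A sum can rest on few genes. In that library Lyz2 made up 2454 of the 2742 FPKM for macrophages and monocytes. Of these 10 markers, 3 were highest there among all libraries and 3 lowest: Adgre1 (0.00904 FPKM), C1qa (2.28 FPKM) and C1qc (0.620 FPKM). Of the 7 neutrophil markers, only S100a8 and S100a9 were highest there, and 0 were lowest. As Normal Ms1608 stood apart, the comparisons of the tested BMP genes are given with and without it. In these sorted populations fewer cells of a type and less RNA per cell cannot be told apart.

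Of the 8 tested genes, 0 passed the limma threshold (adjusted p of 0.05) between MI and Normal, and 0 had an unadjusted p under 0.05. Over all genes 1 gene, the predicted gene Gm24890, or 0.00983%, passed the threshold, and 16.1% were higher in MI at an unadjusted p under 0.05. All 8 had a log2 difference above 0, as did 87.2% of all tested genes, and their median of 0.98 stood beside a median of 0.78 over all tested genes. Here and below a log2 difference is the MI mean of log2(FPKM + 1) less the Normal mean. At that unadjusted p, 1635 genes were higher and 21 lower, but 329 were higher and 159 lower once libraries were scaled by median ratios. The shift of 0.78 became -0.03 after median-ratio scaling of the libraries, 0.20 after upper-quartile and -0.05 after quantile scaling, and the differences of Bmpr2, Smad6 and Smad7 turned negative under all 3, that of Id1 after median-ratio and quantile scaling, and that of Id3 after median-ratio scaling.

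Bmp4 (chr14:46383520-46390669 on the minus strand, build GRCm38), which encodes a secreted BMP ligand, was the 1 tested member whose libraries did not overlap between groups. It was measured at 3.39, 8.21 and 2.24 FPKM across MI against 1.76, 1.96 and 0.113 across Normal. Every MI library lay above every Normal library, which 25% of all tested genes also showed, so that 1 of 8 was below the share over all genes. The log2 difference was 1.28 (SE 0.65, limma adjusted p = 0.333). Without Normal Ms1608 it was 0.83 (SE 0.56, limma adjusted p = 0.309), equal to the median shift of all genes, which was 0.83 in that comparison. Mean FPKM was 4.61 ± 3.17 for MI and 1.28 ± 1.01 for Normal (SD, n = 3 each). Of the marker lists, mural cells had the profile nearest to Bmp4, by a measure described below on which low genes lie near each other. Their summed FPKM was 25.8 to 33.4 in MI and 31.5, 31.5 and 1.21 in Normal, so that it did not separate the groups as Bmp4 did. The fibroblast sum was higher in every MI library than in every Normal library, but narrowly, at 970 FPKM in MI Ms1608 against 924 FPKM in Normal Ms1537. Of its 10 markers, 6 were higher in every MI library than in Normal Ms1535 and Ms1537, as were 52.6% of all tested genes. The markers Dcn, Dpt, Tcf21 and Fap overlapped. The part of these cells in the Bmp4 result was not tested.

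Bmp2 and Bmp6, the other ligand genes, lay under the filter. Bmp2 was at 0.0790 and 0.946 FPKM in MI Ms1537 and Ms1608, was listed at 0 in MI Ms1535, and was at 0.859, 0.0254 and 0.0237 FPKM in Normal Ms1535, Ms1537 and Ms1608. A pair of libraries of different groups, MI Ms1608 and Normal Ms1535, thus held nearly all of it. With library totals read from the steps of low values, which the read number stated in the labels does not match, these levels correspond to about 111 and 126 fragments on the Bmp2 transcript of 3555 bases, against about 3.00 fragments in each of Normal Ms1537 and Ms1608. Bmp6, a ligand that endothelial cells of the liver make, reached at most 0.206 FPKM, in MI Ms1608, and was lowest in Normal Ms1608 at 0.0119 FPKM. On its longest annotated transcript that is about 24.5 and 1.53 fragments, and the groups overlapped. Without the filter, the log2 differences were 0.04 for Bmp2 and 0.06 for Bmp6 (limma adjusted p = 0.979 and 0.707).

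Bmpr2 (chr1:59763400-59879014), the type II receptor gene, was measured at 4.79, 7.96 and 2.36 FPKM across MI against 6.20, 5.35 and 0.797 across Normal. The groups overlapped, with Normal Ms1608 lowest and MI Ms1537 highest. The fitted difference of 0.36 (SE 0.77, limma adjusted p = 0.834) turned to -0.28 without Normal Ms1608 (SE 0.56, limma adjusted p = 0.723). The 95% interval without that library ran from -1.54 to 0.99, so neither direction was set apart from 0.

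Bambi encodes a membrane protein that resembles a type I receptor but lacks the kinase. It was at 3.86, 3.60 and 1.37 FPKM across MI against 1.54, 0.983 and 0.0274 across Normal. MI Ms1608 lay below Normal Ms1535, so the groups overlapped by that 1 library. The log2 difference of 1.12 (SE 0.54) had the lowest limma adjusted p of the 8, at 0.317, and was 0.74 without Normal Ms1608 (SE 0.49, limma adjusted p = 0.301), below the shift of all genes.

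**Figure D1:**
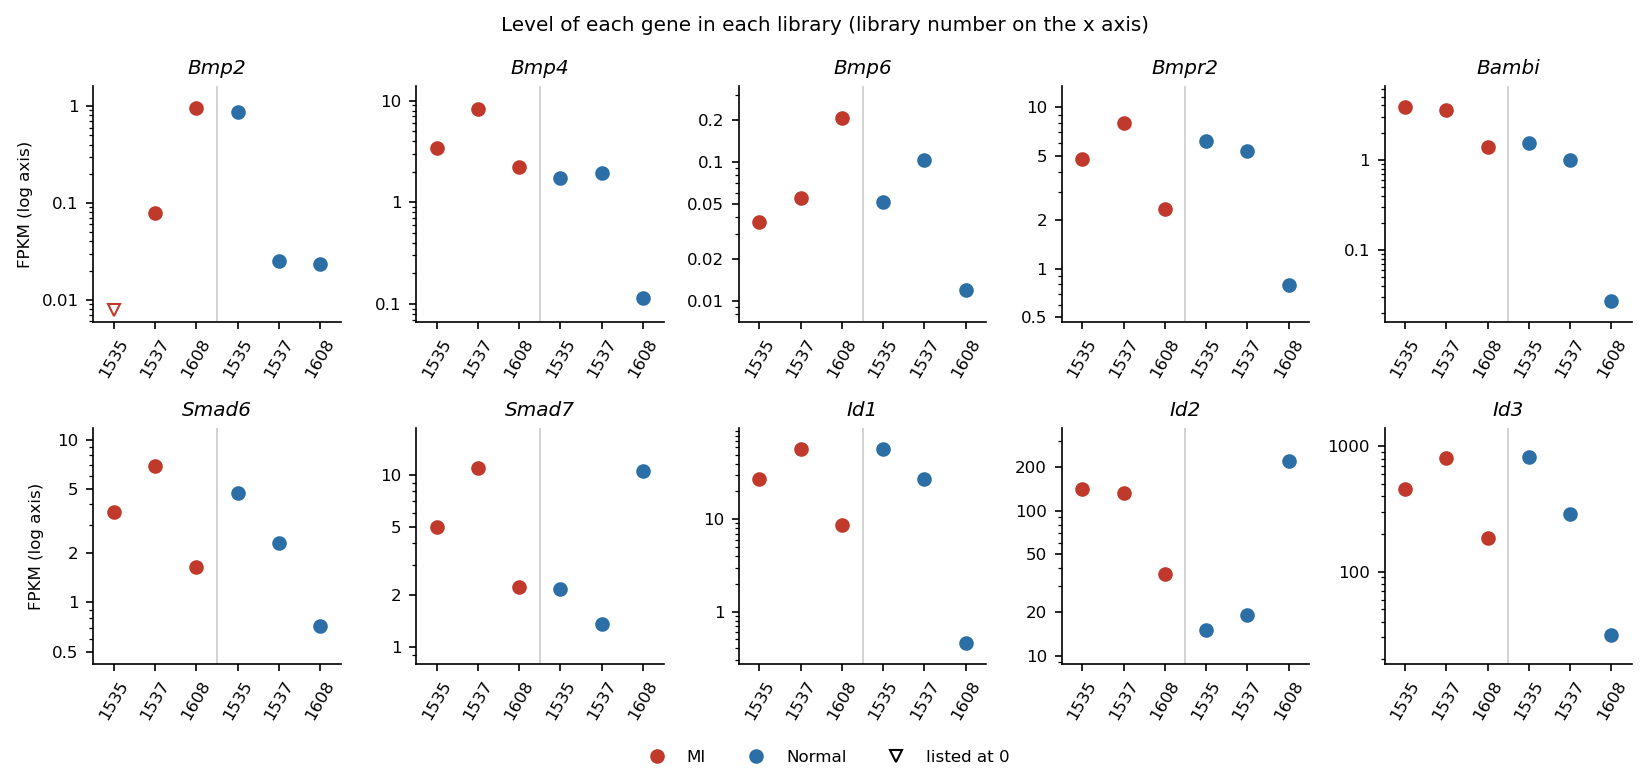
FPKM of each of the 10 genes (log axis) in the 3 MI libraries (red) and the 3 Normal libraries (blue), with the library number on the x axis and an open triangle for a value listed at 0. Normal Ms1608 is the lowest library for 7 of the 10 genes and the highest for Id2, at 219 FPKM.

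Smad6 and Smad7, the inhibitory Smad genes, took opposite places in Normal Ms1608. Smad6 (chr9:63953076-64022059) was measured at 3.60, 6.93 and 1.65 FPKM across MI against 4.69, 2.32 and 0.714 across Normal. Its groups overlapped and Normal Ms1608 was lowest, and the log2 difference was 0.53 (SE 0.70, limma adjusted p = 0.720). Without that library it was 0.08 (SE 0.59, limma adjusted p = 0.927).

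Smad7, which also acts on the TGF-beta branch, was measured at 4.98, 10.98 and 2.23 FPKM across MI against 2.18, 1.36 and 10.5 across Normal. Normal Ms1608 was thus the second highest of the 6 libraries. The log2 difference was 0.47 (SE 0.83, limma adjusted p = 0.794). Without Normal Ms1608 all 3 MI libraries lay above both Normal libraries, by a narrow margin for MI Ms1608, and the difference was 1.16 (SE 0.62, limma adjusted p = 0.220).

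The ratio of the 2 inhibitory Smads within a library is not changed by a scaling with 1 factor per library, though quantile scaling can change it. Smad7 over Smad6 was 1.38, 1.58 and 1.35 in the MI libraries and 0.466 and 0.588 in Normal Ms1535 and Ms1537. It was 14.7 in Normal Ms1608, so Smad7 exceeded Smad6 in all MI libraries and in that library, and Smad6 exceeded Smad7 in the other 2. The mean log2 ratio was 1.46 higher in MI without Normal Ms1608 and -0.15 with it. With 3 libraries against 3, or 3 against 2, an exact two-sided permutation test cannot give a p below 0.1, and none was run for ratios.

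The 250 bases before the annotated start of Smad6 and Bmp4 are shown, Smad6 as an inhibitory Smad gene that BMP signalling induces and Bmp4 as the ligand gene whose libraries did not overlap. They are RefSeq sequences of build GRCm38.p6, written 5′ to 3′ on the strand of the gene, with matches to GGCGNC or CANNTG in capitals.
Smad6: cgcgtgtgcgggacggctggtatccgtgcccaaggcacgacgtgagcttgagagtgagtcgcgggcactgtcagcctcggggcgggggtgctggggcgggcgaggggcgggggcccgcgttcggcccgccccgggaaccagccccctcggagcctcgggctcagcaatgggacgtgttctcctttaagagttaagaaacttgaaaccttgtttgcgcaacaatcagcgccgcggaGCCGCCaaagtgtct
Bmp4: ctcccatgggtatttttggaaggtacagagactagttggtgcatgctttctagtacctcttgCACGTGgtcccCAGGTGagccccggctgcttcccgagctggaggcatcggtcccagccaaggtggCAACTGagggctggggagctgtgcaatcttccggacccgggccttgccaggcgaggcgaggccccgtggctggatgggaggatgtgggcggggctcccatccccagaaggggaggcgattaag
The Smad6 window lies at chr9:64022060-64022309 and the Bmp4 window at chr14:46390670-46390919, both on the minus strand, and no annotated exon overlaps either. GGCGNC, a GC-rich form of the motif that BMP Smads bind, with its reverse complement GNCGCC, occurred 1 time before Smad6 and 0 times before Bmp4. It was found in 30.7% of the 32851 promoters of this length in the table. CANNTG, the E-box that E proteins bind, which is its own reverse complement, occurred 3 times before Bmp4 and 0 times before Smad6, and in 66.2% of promoters. GGCGCC, which is also a match to GGCGNC and was found in 9.59% of promoters, and GTCTG (reverse complement CAGAC, in 42.2%), occurred in neither window.

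Promoters of 6 of the 10 genes were in that table: Bmp4, Bmp6, Bmpr2, Smad6, Id2 and Id3. The windows of Bmpr2 and Id2 each held 1 GGCGCC, that of Id3 held 2 GTCTG, and that of Bmp6 held 1 GTCTG. The windows of Bmp6, Bmpr2, Id2 and Id3 overlap annotated exons and are not printed. Promoters of the other 4 genes were not used here. A match describes these letters and says nothing of binding.

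Id3 and Id1 were the members with the profile nearest to the endothelial markers. Id3 (chr4:136143497-136145755) was the most abundant of the 10 genes in 5 of the 6 libraries, at 454, 812 and 186 FPKM across MI against 824, 287 and 31.3 across Normal. The groups overlapped, Normal Ms1535 was highest and Normal Ms1608 lowest. The log2 difference was 1.06 (SE 1.09, limma adjusted p = 0.629) and -0.25 without Normal Ms1608 (SE 0.67, limma adjusted p = 0.793).

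Id1 (chr2:152736251-152737410) was at 27.3, 56.9 and 8.61 FPKM across MI against 57.1, 27.6 and 0.462 across Normal. The highest and the lowest library were both Normal, a span of 124-fold inside 1 group. The log2 difference was 0.90 (SE 1.29, limma adjusted p = 0.743) and turned to -0.70 without Normal Ms1608 (SE 0.74, limma adjusted p = 0.496), 1.53 below the shift of all genes. Its 95% interval there ran from -2.38 to 0.98.

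Likeness was measured as the root mean square difference between log2(FPKM + 1) profiles over the 6 libraries, each less its own mean. By this measure the gene nearest to Id1 was Kdr, the main endothelial VEGF receptor gene, at 0.22, among the tested genes other than predicted genes and small RNAs, followed by Cmtm8 at 0.30. Kdr had 30.6, 63.1 and 11.9 FPKM across MI against 73.9, 44.6 and 0.486 across Normal. The genes nearest to Id3 were Mfge8, which encodes a secreted glycoprotein, at 0.17 and Rhoc, a small GTPase gene, at 0.26. Against the mean profile of the 15 endothelial markers Id3 stood at 0.39 and Id1 at 0.45, and for both the next list was mural cells, at 1.15 and 1.39.

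Relative to Cdh5 in the same library, Id1 and Id3 varied less than their levels. Cdh5 was the only endothelial marker used so, at 1.20 FPKM in Normal Ms1608 against 0.486 FPKM for Kdr. Over Kdr, Id3 in that library lay above the range of MI. Id1 over Cdh5 was 0.991, 0.722 and 1.33 in MI and 1.42, 1.12 and 0.384 in Normal. Id3 over Cdh5 was 16.5, 10.3 and 28.6 in MI and 20.5, 11.6 and 26.0 in Normal, so that Normal Ms1608 lay inside the range of MI. For both genes the groups overlapped, and the mean log2 ratio differed by 0.21 for Id1 and by -0.12 for Id3. Without Normal Ms1608 both changed sign, to -0.36 for Id1 and 0.13 for Id3. Smad6 over Cdh5 ranged from 0.0879 to 0.254 in MI and from 0.0938 to 0.594 in Normal, and Bmpr2 over Cdh5 from 0.101 to 0.363 and from 0.154 to 0.663, again with overlap. Their mean log2 ratios differed by -0.39 and -0.60, and by 0.45 and 0.02 without Normal Ms1608.

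For Bmp4 and Bambi the same ratio did not overlap between groups. Bmp4 over Cdh5 was 0.123, 0.104 and 0.345 in MI and 0.0436, 0.0793 and 0.0942 in Normal. Bambi over Cdh5 was 0.140, 0.0457 and 0.212 in MI and 0.0384, 0.0398 and 0.0228 in Normal. For both genes every MI library lay above every Normal library, as for 6.4% of all tested genes, although the gap was narrow: MI Ms1537 stood close to the highest Normal library in both. These 2 ratios were singled out after their values were seen, and Cdh5 was the only endothelial marker used as the denominator. For Bmp4 the separation depended on that choice. Kdr was at 0.486 FPKM in Normal Ms1608, below Cdh5 at 1.20 FPKM, but above Cdh5 in Normal Ms1535 and Ms1537. With Kdr in place of Cdh5 the Bmp4 groups overlapped through Normal Ms1608.

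**Figure D2:**
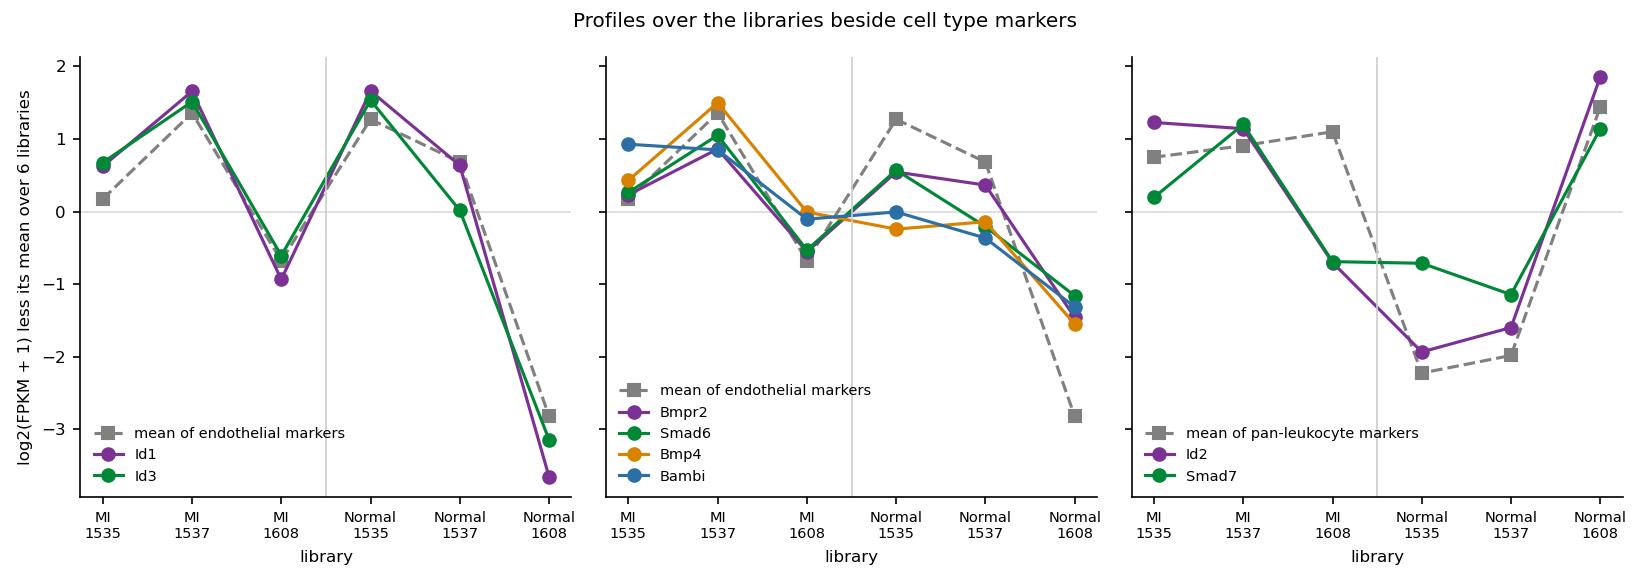
Centred log2(FPKM + 1) of 8 genes over the 6 libraries (x axis, MI left and Normal right of the line) beside the mean of 15 endothelial markers or of 10 pan-leukocyte markers (dashed squares). Id1 and Id3 have their minimum in Normal Ms1608 together with the endothelial markers, whereas Id2 and Smad7 are high in that library, as are the leukocyte markers.

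Id2 (chr12:25093799-25097140), which besides its part in BMP responses is needed for natural killer and innate lymphoid cells, had another order of libraries than Id1 and Id3. It was measured at 141, 133 and 36.3 FPKM across MI against 14.9, 19.1 and 219 across Normal. The MI libraries all lay above Normal Ms1535 and Ms1537, and all below Normal Ms1608. With all 6 libraries the log2 difference was 1.11 (SE 1.04, limma adjusted p = 0.589). Without Normal Ms1608 it was 2.32 (SE 0.63, limma adjusted p = 0.0671), 1.49 above the shift of all genes, with a 95% interval from 0.90 to 3.75. Without both libraries numbered Ms1608 it was 2.95 and passed the limma threshold (adjusted p = 0.0290), on 2 libraries against 2, and it also passed when libraries were weighted by their fit (2.53, limma adjusted p = 0.00700). In those settings 14.4% and 32.3% of all tested genes passed, so 1 of 8 members (12.5%) lay below the share over all genes. No other member passed in any of the settings tried.

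Leukocyte markers had the same order as Id2 across the Normal libraries, but not within MI. Their pan-leukocyte sum was 2517, 2859 and 2613 FPKM across MI, whereas Id2 was lower in MI Ms1608, at 36.3 FPKM, than in the other MI libraries. All 10 pan-leukocyte markers were higher in every MI library than in Normal Ms1535 and Ms1537, and 7 of the 10 were highest in Normal Ms1608, with none listed at 0. Of the 12 T and NK cell markers, 9 were higher in every MI library than in those 2 Normal libraries. So were all 7 B cell, 6 of 7 neutrophil and 8 of 10 macrophage and monocyte markers, and 52.6% of all tested genes. The trait was thus not particular to T and NK cells. The T and NK cell sum ranged from 316 to 1157 FPKM in MI and was 78.4, 332 and 997 FPKM in Normal. Prf1 was listed at 0 in Normal Ms1537. The marker list nearest to the Id2 profile was that of T and NK cells, at a root mean square difference of 0.73 log2 units, followed by pan-leukocyte markers at 0.81. For Smad7 the nearest list was also T and NK cells, at 0.68. Id2 over Ptprc, the gene of the leukocyte antigen CD45, was 2.06, 1.71 and 0.479 in MI and 4.77, 4.04 and 1.26 in Normal, so relative to Ptprc the MI libraries lay below Normal Ms1535 and Ms1537, and the groups overlapped through Normal Ms1608. Smad7 over Ptprc was 0.0725, 0.141 and 0.0294 in MI and 0.699, 0.289 and 0.0604 in Normal. Ptprc itself had levels of 68.7, 77.9 and 75.9 FPKM across MI, and of 3.13, 4.72 and 174 FPKM across Normal. Any gene that rose less than Ptprc would have a lower ratio, and the share of all tested genes that did so was not computed. Whether Id2 or Smad7 differed per leukocyte was thus not tested by these ratios. The part of leukocytes in the Id2 and Smad7 levels was not tested.

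The balance between Id2 and Id3 separated the libraries in the same way as that between Smad7 and Smad6. Id2 over Id3 was 0.311, 0.164 and 0.195 in MI, 0.0181 and 0.0664 in Normal Ms1535 and Ms1537, and 6.99 in Normal Ms1608. Id3 exceeded Id2 in 5 libraries, and Normal Ms1608 was the exception. The mean log2 ratio was 2.63 higher in MI without Normal Ms1608 and 0.08 with it. How many other gene pairs would separate the libraries so was not computed, for this ratio or for Smad7 over Smad6. Of all tested genes, 52.6% had every MI library above Normal Ms1535 and Ms1537 by level alone. Id2 ranked second among the 10 genes in all MI libraries, Id1 ranked second in Normal Ms1535 and Ms1537, and Id1 over Id3 stayed between 0.0463 and 0.0960 in every library but Normal Ms1608, where it was 0.0148.

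**Figure D3:**
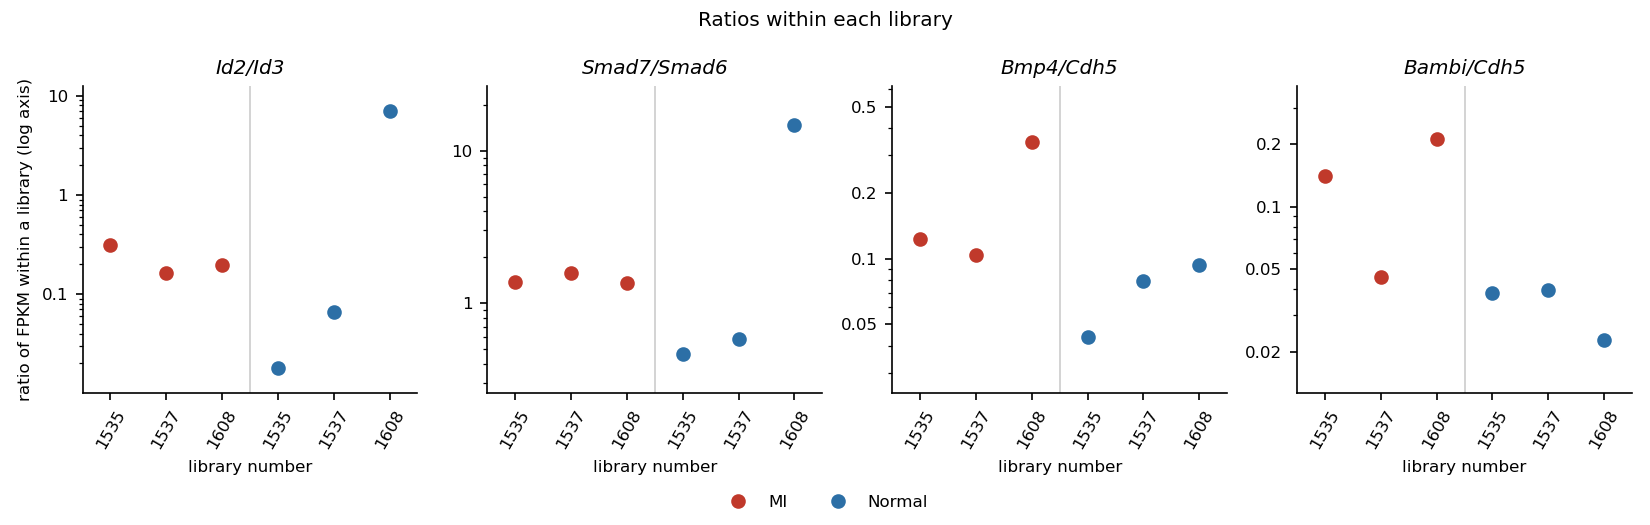
Ratios of FPKM within each library (log axis) for 3 MI libraries (red) and 3 Normal libraries (blue), by library number. Id2 over Id3 and Smad7 over Smad6 are higher in MI than in Normal Ms1535 and Ms1537 and highest in Normal Ms1608, and Bmp4 and Bambi over Cdh5 are higher in every MI library than in every Normal library.

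Among the members the nearest profiles were those of Bmpr2 and Smad6 (root mean square difference 0.27), Id1 and Id3 (0.36) and Bmp4 and Bambi (0.37). The other pairs among Bmp4, Bambi, Bmpr2 and Smad6 followed at 0.42 to 0.52, so these 4 genes lay close together. Smad7 and Id2 came next at 0.74, and the farthest pair was Id1 and Id2 (2.86). The marker list nearest to each of Bambi, Bmp4, Bmpr2 and Smad6 was that of mural cells, at 0.39 to 0.55, before endothelial cells at 0.68 to 1.01. The measure does not scale profiles to a common spread, so low genes with small changes lie near each other. Of the 9 mural markers 5 passed the filter, and this nearness does not show a cell type. Other genes near the members were Gulp1 and Tspan13 for Bmpr2 (0.08 and 0.12), Ccdc102a and Sybu for Smad6 (both 0.10), Sspn and Kdelc1 for Bmp4 (0.07 and 0.08), Dctn4 and Grpel1 for Bambi (0.06 and 0.07), Znhit6 and Zc3h14 for Smad7 (0.06 and 0.13) and Osbpl3 and Pcf11 for Id2 (0.24 and 0.25). These are descriptions over 6 libraries, and such close matches are picked from all tested genes, not tested.

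In order of level, Id3 led in every library but Normal Ms1608, followed by Id2 and Id1 in MI and by Id1 and Id2 in Normal Ms1535 and Ms1537. In Normal Ms1608 Id2 led before Id3, and Smad7, Bmpr2 and Smad6 stood above Id1. Mean FPKM in MI was 484 ± 314 for Id3, 104 ± 58.3 for Id2 and 31.0 ± 24.4 for Id1, and in Normal 381 ± 405, 84.2 ± 116 and 28.4 ± 28.3 (SD, n = 3). Within Normal the means of neighbours thus lay within the spread among libraries, which does not compare genes inside a library. Bmpr2, Smad6, Smad7, Bmp4 and Bambi lay within 0.0274 to 10.98 FPKM, and the MI means of neighbours among them lay within the spread among libraries. Group means in MI were 5.04 ± 2.81 for Bmpr2, 4.06 ± 2.67 for Smad6, 6.06 ± 4.47 for Smad7, 4.61 ± 3.17 for Bmp4 and 2.94 ± 1.37 FPKM for Bambi (SD, n = 3). Inside each library, however, Bmpr2 stood above Smad6, and Smad7 stood above Smad6 in every MI library. Normal Ms1608 was the lowest library for 6 of the 8 tested members (75%), against 44.1% of all tested genes.

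**Figure D4:**
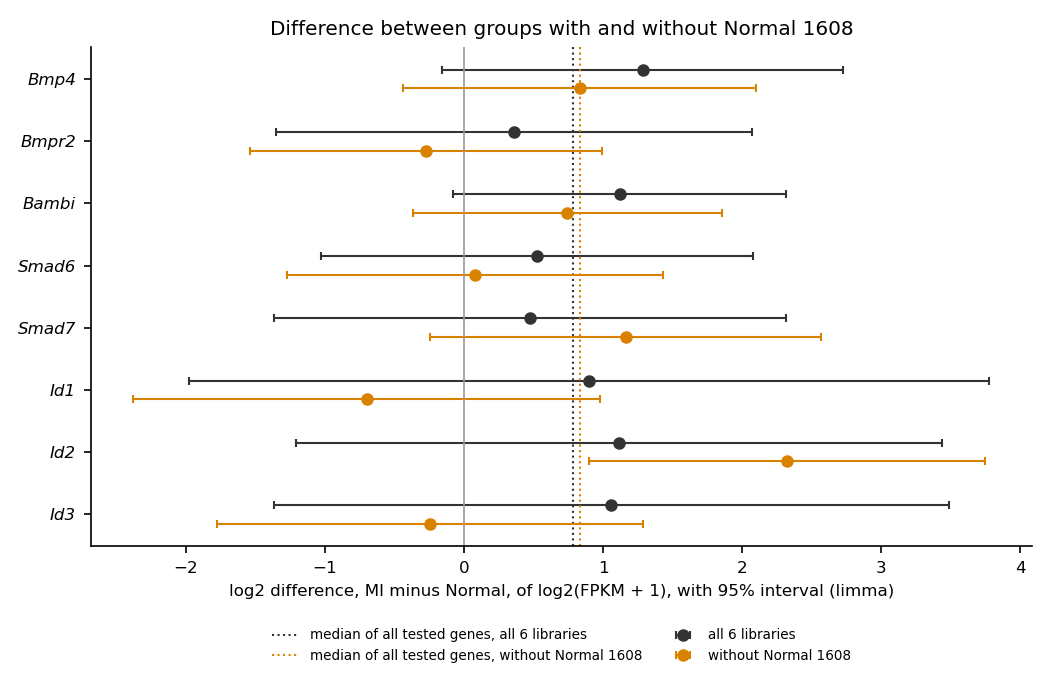
Log2 difference, MI minus Normal, of log2(FPKM + 1) for the 8 tested genes with the 95% interval of limma, with all 6 libraries (black) and without Normal Ms1608 (orange), and the median of all tested genes as dotted lines at 0.78 and 0.83. All black intervals cross 0, and without Normal Ms1608 that of Id2 lies above 0 while the points of Bmpr2, Id1 and Id3 move below it.

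Without Normal Ms1608, 4.51% of all tested genes passed the limma threshold and 0 of the 8 members did. At an unadjusted p under 0.05, 30.8% of all genes were higher in MI, and 1 of 8 members, Id2. Every MI library was above both Normal libraries for 3 of 8 members (37.5%), namely Bmp4, Smad7 and Id2, against 52.6% of all genes. The log2 difference was above 0 for 5 of 8 members, against 87.7% of all genes, and the median was 0.41 against 0.83. After median-ratio scaling of these 5 libraries the median of all genes was 0.0033, and the log2 differences were -1.76 for Id1, -1.33 for Id3, -1.20 for Bmpr2 and 1.27 for Id2 (limma adjusted p from 0.189 to 0.253).

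The wider pathway was read from lists of 61 other genes, ordered by role, of which 32 passed the filter. By limma 0 of the 32 passed the threshold, with or without Normal Ms1608, and 8 of 32 had an unadjusted p under 0.05, all with a higher level in MI, a share of 25% beside the 16.1% of all tested genes. Without Normal Ms1608 it was 9 of 32 (28.1%) beside 30.8%. Every MI library lay above every Normal library for 9 of the 32 (28.1%), near the 25% of all genes.

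Of 10 other ligand genes none passed the filter. Gdf6, a ligand gene named here after its values were seen, was at 4.21 FPKM in MI Ms1535 and 2.62 FPKM in MI Ms1537, but reached at most 0.0429 FPKM in the other 4 libraries. Gdf2 and Bmp10, the ligands of Acvrl1, reached at most 0.0284 and 0.0726 FPKM.

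Of 11 other receptor and co-receptor genes 6 were tested, with a median log2 difference of 0.98, or 0.37 without Normal Ms1608. Tgfbr3, the co-receptor betaglycan, had 11.4, 7.03 and 3.58 FPKM across MI against 2.97, 1.72 and 0.121 across Normal, without overlap (log2 difference 1.74, SE 0.72, limma adjusted p = 0.284). Its difference was 1.23 without Normal Ms1608. Neo1, the neogenin receptor gene, and Acvr1, a type I receptor gene, had differences of 1.11 and 1.20 (limma adjusted p = 0.375 for Neo1 and 0.388 for Acvr1), or 0.76 and 0.79 without Normal Ms1608. The endothelial receptor genes Acvrl1 and Eng, also named after their values were seen, had differences of 0.17 and 0.84 with all libraries and of -0.0082 and -0.37 without Normal Ms1608 (limma adjusted p = 0.914 and 0.700, then 0.991 and 0.660). Acvrl1 was at 6.91 FPKM in Normal Ms1608, within the range of the other libraries, whereas Eng was at 0.188 FPKM there against 5.94 to 22.1 FPKM elsewhere.

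Among the Smads that carry the signal, 3 of 4 were tested, and all 3 overlapped between groups. Smad1 was at 3.17, 3.72 and 2.21 FPKM across MI against 4.96, 2.48 and 19.0 across Normal (log2 difference -0.91, limma adjusted p = 0.553), and without Normal Ms1608 the difference was -0.19 (limma adjusted p = 0.782). Smad5 had a difference of 1.41 (limma adjusted p = 0.394), with 0.475 FPKM in Normal Ms1608 against 3.54 to 18.0 FPKM elsewhere, so these 2 receptor-activated Smads lay at opposite ends in that library. Smad4, the common partner, had a difference of 0.82 (limma adjusted p = 0.530). Without that library the differences of Smad5 and Smad4 were 0.72 and 0.58. Smad9 was at or below 0.337 FPKM in every library.

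All 8 intracellular negative regulators were tested, with a median log2 difference of 1.02, or 1.06 without Normal Ms1608. Ski, a co-repressor that binds Smads, had 16.5, 14.9 and 5.60 FPKM across MI against 1.97, 1.05 and 2.52 across Normal, and its relative Skil had 13.9, 14.2 and 6.31 FPKM against 3.47, 2.12 and 2.87 FPKM. Neither overlapped between groups, and unlike Id2 both kept the separation with Normal Ms1608 included. The log2 differences were 2.14 (SE 0.69, limma adjusted p = 0.247) and 1.65 (SE 0.67, limma adjusted p = 0.281). Leaving out Normal Ms1608 gave 2.31 for Ski and 1.66 for Skil. Smurf2, a ubiquitin ligase that acts with inhibitory Smads, had 7.75 to 14.8 FPKM in MI and 0.993 to 5.61 FPKM in Normal (difference 1.55, limma adjusted p = 0.317), and the difference was 1.01 without Normal Ms1608. Its relative Smurf1 was at 29.2 FPKM in Normal Ms1608 against 0.941 to 3.02 FPKM elsewhere.

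Of 16 secreted antagonists and BMP-binding proteins 6 were tested, and their median log2 difference of 2.54, or 1.76 without Normal Ms1608, was the highest of the 6 tested lists of other genes in both comparisons. Fstl1, a follistatin-like glycoprotein, had 126, 160 and 35.2 FPKM across MI against 15.3, 16.3 and 4.601 across Normal (log2 difference 2.96, SE 0.81, limma adjusted p = 0.245). Twsg1, a BMP-binding modulator, had 62.4, 39.7 and 16.6 FPKM against 8.42, 9.18 and 0.268 FPKM (2.85, SE 0.94, limma adjusted p = 0.251). Nbl1, a BMP antagonist of the DAN family, had 20.1, 17.8 and 3.01 FPKM against 1.30, 2.90 and 0.132 FPKM (2.43, SE 0.84, limma adjusted p = 0.252). Mgp, a matrix protein that binds BMPs and was named after its values were seen, had a difference of 2.65 (limma adjusted p = 0.333) that was 0.91 without Normal Ms1608. The remaining tested genes, Crim1 and Bmper, also named after their values were seen, overlapped between groups. Their differences were 0.73 and 0.08 (limma adjusted p = 0.552 and 0.979). These became 0.30 and 1.65 without Normal Ms1608, a library in which Bmper stood at 28.8 FPKM. Fstl1, Twsg1 and Nbl1 separated the groups, and their differences were 2.43, 1.86 and 1.96 without Normal Ms1608. The fibroblast marker sum was also higher in every MI library than in every Normal library, but narrowly, and the markers Dcn, Dpt, Tcf21 and Fap overlapped. The part of fibroblasts in these 3 genes was not tested. Without Normal Ms1608 and after median-ratio scaling the differences of Fstl1, Twsg1 and Nbl1 were 1.38, 0.84 and 1.08, beside 1.496 for Ski (limma adjusted p from 0.167 to 0.429). In that setting Bmper, Mgp and Crim1 were at 1.23, -0.17 and -0.46. Among the other pathway genes without overlap between groups, Skil was at 0.77, Tmem100 at 0.51 and Tcf3 at 0.49. Tgfbr3 was at 0.38 and Smurf2 at 0.04 there, beside a median of 0.0033 over all genes. Bmp4 over Twsg1 was 0.0543, 0.207 and 0.135 in MI and 0.209, 0.213 and 0.422 in Normal. Nog, Chrd and Grem1, which encode classical antagonists, were at or below 0.103 FPKM in every library.

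Of 9 other BMP-responsive genes 6 were tested, with a median log2 difference of 0.40, or -0.17 without Normal Ms1608. Tmem100, an endothelial membrane protein gene that responds to Acvrl1 signalling, had 9.03, 7.46 and 7.49 FPKM across MI against 1.61, 3.55 and 0.0336 across Normal, without overlap (log2 difference 1.96, SE 0.71, limma adjusted p = 0.255). It thus differed from Id1, another target, by its place in Normal Ms1535 and Ms1537. The difference of Tmem100 was 1.38 without Normal Ms1608. Msx1 and Id4 overlapped between groups, with differences of 0.67 and 0.38 (limma adjusted p = 0.742 and 0.774) that were -0.40 and 0.05 without Normal Ms1608. Atoh8, named after its values were seen, had 1.26, 1.15 and 1.10 FPKM in MI, below Normal Ms1535 and Ms1537 at 6.65 and 1.498 FPKM, and 0.0858 FPKM in Normal Ms1608.

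The 3 E proteins that Ids bind were all tested, with a median log2 difference of 0.40, or 1.01 without Normal Ms1608. Tcf3 had 4.20, 5.33 and 1.99 FPKM across MI against 0.997, 1.03 and 0.653 across Normal, without overlap (log2 difference 1.29, SE 0.52, limma adjusted p = 0.280). Tcf4 and Tcf12 overlapped, with differences of -0.19 and 0.40 (limma adjusted p = 0.903 and 0.819). Without Normal Ms1608 these were 0.0093 and 1.01 (limma adjusted p = 0.990 and 0.240), and Tcf12 was highest in Normal Ms1608 at 16.7 FPKM. The difference of Tcf3 was 1.20 without that library.

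**Figure D5:**
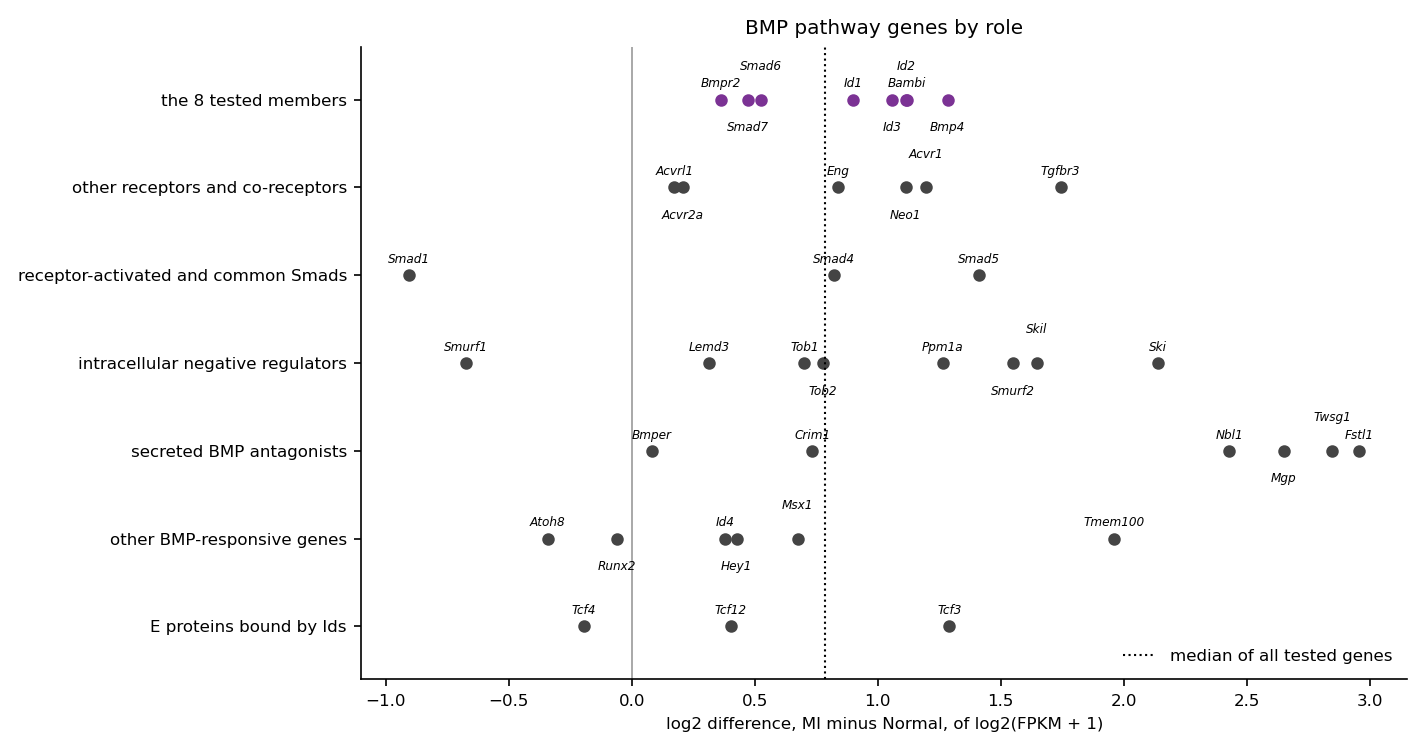
Log2 difference, MI minus Normal, of log2(FPKM + 1) for the 8 tested members (purple) and 32 other tested BMP pathway genes (grey) by role, with the median of all tested genes at 0.78 as a dotted line. The highest values are those of the secreted antagonists Fstl1, Twsg1, Mgp and Nbl1, from 2.43 to 2.96.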

How the data were processed

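FPKM values were deposited by the authors as 1 table. Per the submitters' processing notes STAR 2.4.2a, Cufflinks 2.2.1 and build GRCm38 were used; the annotation release, strand setting and treatment of multi-mapping reads are not given in the sources used here. Per the labels' protocols, RNA was amplified by in vitro transcription. Steps of low FPKM values in single-transcript genes gave totals of 35.0 to 48.9 M fragments per library (90.2% to 92.9% of these values within 0.1 of a whole number), at which 3 fragments on a gene of 2 kb are 0.0307 to 0.0429 FPKM (counting error only). Per the labels about 10 megabyte reads were made per sample; this was not reconciled, and a lower total would lower every fragment number in proportion. Between 21924 and 23850 genes were listed at 0 per library.

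Groups were compared by limma 3.58.1 (R 4.3.3; mean-variance trend; log2 of FPKM plus a pseudocount of 1; Benjamini-Hochberg adjustment over the 10168 genes past the filter), checked on simulated data. The simulated noise was smaller than the spread of these data, so that check does not show the error rate or power reached here. Low genes' differences are understated on the log2(FPKM + 1) scale. The 10 genes and all lists (7 of other pathway genes, 10 of cell type markers) were chosen with earlier results of these data known. Named were all members, up to 3 genes per list by lowest unadjusted p, the 2 genes nearest to each tested member, and others stated as chosen after their values were seen. Positions are those of GENCODE M21, which held 98.6% of the identifiers. No values belong to unmapped columns.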

Additional observations from a re-analysis of the deposited data

How the results depend on the processing

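The number of libraries and Normal Ms1608 limit these results. All settings other than those joining the omission of Normal Ms1608 with a scaling, which were chosen after seeing the data, were planned. Over all genes 1 passed the limma threshold as reported, 3288 with library weights (Normal Ms1608 had a weight of 0.117), 1469 without both libraries numbered Ms1608, 3 and 2 without Normal Ms1608 after median-ratio and quantile scaling, and 1 to 459 with each library left out in turn (459 without Normal Ms1608, 2 without MI Ms1537). Of the members 1 passed, Id2, with library weights and without both Ms1608 libraries, and 0 with each library left out; of the other pathway genes 11 and 7 passed in those settings.

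The members' median was -0.044 after median-ratio and -0.031 after quantile scaling, -0.38 and -0.48 after these scalings without Normal Ms1608, and 0.41 to 1.52 with each library left out. Relative to the median of all genes it was 0.20 as reported, -0.024 with a pseudocount of 0.1, -0.018 after median-ratio scaling, -0.41 with library weights, -0.23 without both Ms1608 libraries, -0.38 and -0.44 without Normal Ms1608 after median-ratio and quantile scaling, and -0.42 (without Normal Ms1608) to 0.59 (without MI Ms1608) with each library left out; without MI Ms1537 it was -0.24.

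Directions that reversed were as follows, and the cause was not tested. After median-ratio scaling the log2 difference was -0.49 for Bmpr2, -0.059 for Id1, -0.029 for Id3, -0.27 for Smad6 and -0.39 for Smad7. After upper-quartile scaling it was -0.33 for Bmpr2, -0.12 for Smad6 and -0.080 for Smad7. After quantile scaling it was -0.95 for Bmpr2, -0.21 for Id1, -0.72 for Smad6 and -0.28 for Smad7. With library weights it was -0.18 for Bmpr2 and -0.40 for Id1, and without both Ms1608 libraries -0.0086 for Id1. Without Normal Ms1608 and with median-ratio scaling it was -1.20 for Bmpr2, -1.76 for Id1, -1.33 for Id3 and -0.78 for Smad6, and with quantile scaling -1.26, -1.57, -0.86 and -0.88, beside -0.10 for both Bambi and Bmp4. With each library left out in turn it ranged from -0.28 to 0.73 for Bmpr2, from -0.70 to 1.96 for Id1, from -0.25 to 2.09 for Id3 and from -0.0082 to 1.16 for Smad7. Id2 stayed above 0 in all 19 alternatives, from 0.04 to 2.95, with adjusted p from 0.00700 to 0.994. A filter on a mean of 5 FPKM left no value for Bmp4, Bmpr2, Smad6 and Bambi.

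Deviations from the group means correlated at -0.052, 0.098 and 0.087 between same-numbered libraries, and at -0.115 to 0.104 between differently numbered ones. With 3 libraries per mean, this check can neither show nor exclude shared mice. The numbers were not taken as pairs because the labels state no pairing. With the replicate number as a block the limma fit called 0 members and 1 gene of all, the members' median was 0.98, and 1845 genes had an unadjusted p under 0.05, against 1656 without the block.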
